A study of Mus musculus with 4 samples.

Results

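The genes of major histocompatibility complex (MHC) antigen presentation were described in 4 lines of L1210, a mouse lymphocytic leukemia cell line that the labels give as a DBA subline. The 10 genes were chosen by name. They were H2-K1, H2-D1, B2m, Tap1 and Tap2 of class I and H2-Aa, H2-Ab1, H2-Eb1, Cd74 and Ciita of class II. All probes carrying these symbols in the deposited table were taken, which were 13 of 33822 probes with a symbol and 10 of 24561 symbols. Each line was made by infection with a lentivirus and sorting of GFP-positive cells. L1210-control carried the control vector, and the other lines carried a transcript variant of Fbxw11, an F-box protein that selects substrates for the SCF ubiquitin ligase. L1210-Fbxw11a carried the full-length variant, L1210-Fbxw11c the variant without exon 2, and L1210-Fbxw11d the variant without exons 2 and 3. Total RNA of each line was hybridised to 1 Agilent 1-colour array. There were no replicate arrays, so no test between lines was possible, and a fold change of 2, the study's own threshold, was used as a description.

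Class I molecules carry peptides made in the cytosol to the surface of nearly every nucleated cell. H2-K1 and H2-D1 encode classical heavy chains, B2m the light chain that they need, and Tap1 and Tap2 the transporter that brings peptides into the endoplasmic reticulum. Class II molecules carry peptides from the endocytic route and are found mainly on B cells, dendritic cells and macrophages. H2-Aa and H2-Ab1 encode the α and β chains of I-A, H2-Eb1 the β chain of I-E, Cd74 the invariant chain that guards the peptide groove, and Ciita the transactivator on which class II transcription depends. The promoters of both classes hold an X and Y box module to which the RFX complex, CREB and NF-Y bind. CIITA is recruited there at class II genes, and NLRC5 at class I genes. Fbxw11, also called β-TrCP2, is known to target IκB, the inhibitor of NF-κB, and many class I promoters hold an NF-κB site.

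These promoters are shown because both classes are read through the same module. RefSeq promoter sequences of GRCm38.p6 matched 6 of the 10 genes. The 180 bases before the start are printed in the direction of transcription for H2-D1, at chr17:35262914-35263093 on the plus strand, B2m, at chr2:122147507-122147686 on the plus strand, H2-Aa, at chr17:34287824-34288003 on the minus strand, and H2-Eb1, at chr17:34305687-34305866 on the plus strand. The B2m window also lies within the RefSeq span of Patl2. Capitals mark ATTGG or its complement CCAAT (the Y box core), TGACG or CGTCA (the X2 box core), and GGGATTCCC (the centre of an NF-κB site), searched on both strands.

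H2-D1: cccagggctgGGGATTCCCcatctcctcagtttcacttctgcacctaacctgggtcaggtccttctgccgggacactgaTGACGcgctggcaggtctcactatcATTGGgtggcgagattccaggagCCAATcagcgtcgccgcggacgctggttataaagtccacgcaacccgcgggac
B2m: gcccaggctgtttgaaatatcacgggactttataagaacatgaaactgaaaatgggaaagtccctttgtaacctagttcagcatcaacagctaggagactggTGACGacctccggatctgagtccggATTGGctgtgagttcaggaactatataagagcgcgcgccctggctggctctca
H2-Aa: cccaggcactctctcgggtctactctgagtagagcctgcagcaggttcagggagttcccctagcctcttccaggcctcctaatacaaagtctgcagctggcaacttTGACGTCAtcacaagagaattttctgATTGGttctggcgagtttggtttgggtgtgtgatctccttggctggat
H2-Eb1: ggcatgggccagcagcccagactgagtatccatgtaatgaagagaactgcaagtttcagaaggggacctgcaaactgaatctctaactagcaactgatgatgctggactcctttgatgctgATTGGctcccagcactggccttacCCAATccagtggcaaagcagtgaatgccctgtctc

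Within the 250 bases before the start, ATTGG or CCAAT was found in all 6 promoters and in 37.5% of the 27025 symbols with a RefSeq promoter. TGACG or CGTCA was found in 5 of the 6, all but H2-Eb1, and in 19.8% of all symbols. In H2-Aa both forms overlap in 1 palindrome. GGGATTCCC or its complement was found in H2-K1 and H2-D1 and in 0.352% of all symbols. A match describes letters only and is not evidence of binding.

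Signals are given as scaled to the L1210-control array. Where values are listed in line order, they are those of the control line first and then of the Fbxw11a, Fbxw11c and Fbxw11d lines, and ratios to the control line follow the same order. The ± behind a signal or a log2 ratio is the scanner software's own error estimate, and it leaves out culture, sorting and RNA extraction. The arrays of L1210-control, L1210-Fbxw11a and L1210-Fbxw11c shared 1 slide. L1210-Fbxw11d was on another, so its variant and its slide cannot be told apart. Between 62.5% and 68.7% of probes were well above background, and no gene spot was saturated. B cell markers fitted the lymphocytic label in part. Of 10 such markers, 6 stood well above background on every array, among them Cd79a and Blnk, while Ms4a1, Ebf1, Cd79b and Igll1 were on none. Markers of other cells were read too, with 5 of 10 T cell markers, 8 of 13 macrophage and dendritic cell markers and 6 of 10 stromal markers well above background on all arrays. Cd3g, Lyz2, Itgax and Pdgfrb were not well above background on any. The summed signals ranged over the lines from 18794 to 23613 for B cell, 4478 to 4881 for T cell, 88534 to 97512 for macrophage and dendritic cell, and 33233 to 38745 for stromal markers. Most of each sum came from 1 bright probe, of Blnk, Cd4, Siglech and Fn1, so the sums say little of the other markers. In L1210-Fbxw11d, 2 of 9 macrophage and dendritic cell markers tested were past 2-fold lower than in L1210-control by their brightest probes, beside 4.69% of all symbols, Csf1r by 2.17-fold and Flt3 by 2.15-fold, while Emr1 was 1.89-fold higher. A second probe of Csf1r had a log2 ratio of only -0.25 in that line, and a second probe of Emr1 was well above background in that line alone, at 102. The stromal gene Col1a2 was higher than in L1210-control in every variant line, by 2.72-fold, 4.31-fold and 4.17-fold in line order. Other stromal genes lay on both sides of the control line, with log2 ratios of 0.04, 0.38 and 0.48 for Col1a1 and of -0.02, -0.55 and -0.70 for Pdgfra. Col3a1 was higher by at least 1.61-fold, 1.96-fold and 1.13-fold, and the list's median was 0.00, 0.03 and 0.34. The part of these genes in the results below was not tested.

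The 2 classes differed first in detection. All 5 class I genes, by all 7 of their probes, were well above background on all 4 arrays. Of the 5 class II genes, H2-Ab1, H2-Eb1 and Cd74 passed this limit on every array, while H2-Aa and Ciita did on none. A gene that passes it is called read below. The level of 1 probe was not set against that of another, since probes differ in how well they bind. Whether a probe that did not pass the limit binds its transcript in these cells was not tested.

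**Figure D1:**
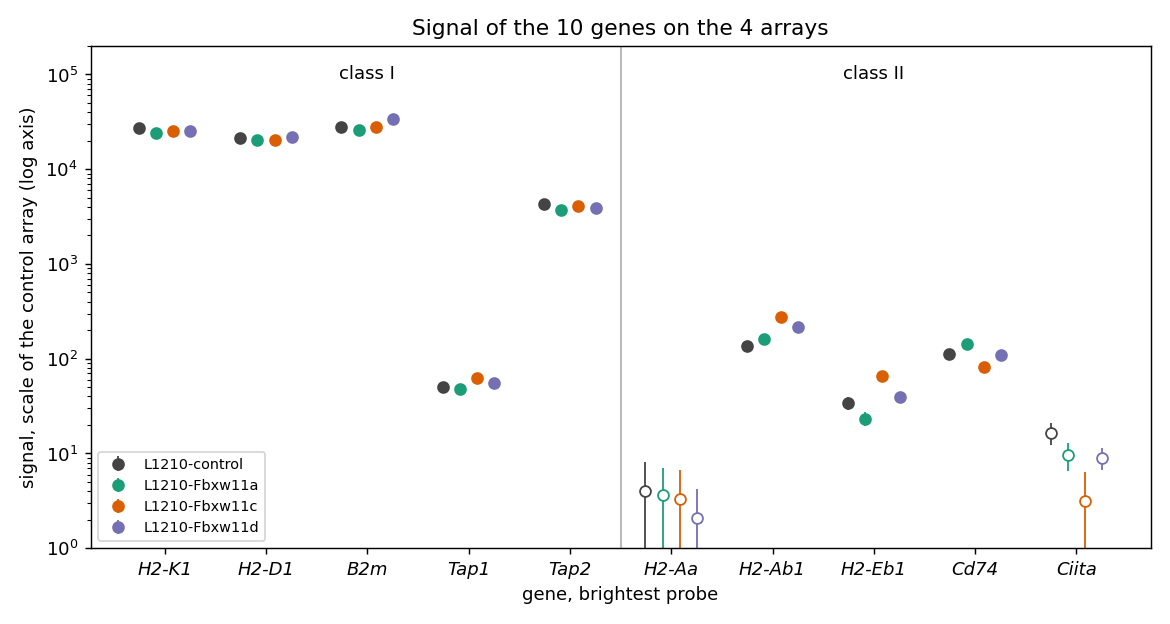
Signal of the brightest probe of each of the 10 genes (log axis, scaled to the L1210-control array), 1 point per line. Vertical lines are the scanner's error and run off the bottom of the axis for some H2-Aa and Ciita points, and open points were not well above background. Class I points lie close together within each gene, while H2-Ab1, H2-Eb1 and Cd74 are spread, and all 8 points of H2-Aa and Ciita are open.

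The class I heavy chains were nearly level over the lines. H2-K1 was read by 3 probes, of which the brightest lies at chr17:34133055-34133114 of mm9, on the minus strand, and starts at base 1488 of the transcript. Its signal was 27209 ± 2721 in L1210-control, beside 24144 ± 2414 in L1210-Fbxw11a, then 25580 ± 2558 in L1210-Fbxw11c and lastly 25357 ± 2536 in L1210-Fbxw11d. The lines differed by less than the scanner's error throughout, and the log2 ratios to L1210-control were -0.17, -0.09 and -0.10, each ± 0.20. This probe is printed on 10 spots, of which 9 or 10 were usable. The spots ran from 25362 to 28086 in L1210-control and from 21155 to 26264 in L1210-Fbxw11a, so the spots of these lines overlapped. The second probe of H2-K1, at chr17:34133984-34134043, gave log2 ratios of -0.00, -0.05 and -0.20. The third, for which the table gives no position, gave -0.06, -0.15 and -0.34. All 3 probes placed no variant line above L1210-control, and the third alone passed its error of 0.20, in L1210-Fbxw11d.

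H2-D1 had the smallest range of the 8 genes read on all arrays. Its probe at chr17:35403886-35403945, plus strand, gave 21196 ± 2120 in L1210-control, beside 20386 ± 2039 in L1210-Fbxw11a, then 20354 ± 2035 in L1210-Fbxw11c and lastly 21776 ± 2178 in L1210-Fbxw11d. The highest and the lowest line differed by 0.10 on the log2 scale, which is within the error of 0.20. Class I heavy chains are close copies of each other, and a probe may also take up transcripts of a related gene. DBA mice carry another H2 haplotype than the C57BL/6 reference genome. The effect of either on these probes was not tested.

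B2m was higher than in L1210-control beyond the error in L1210-Fbxw11d alone. Its probe at chr2:121978401-121978460, plus strand, gave 27978 ± 2798 in L1210-control, beside 26133 ± 2613 in L1210-Fbxw11a, then 27991 ± 2799 in L1210-Fbxw11c and lastly 33971 ± 3397 in L1210-Fbxw11d. The log2 ratio of L1210-Fbxw11d to L1210-control was 0.28 ± 0.20, a 1.21-fold difference, and both spots in that line, at 32773 and 35213, were above both spots of each other line. It was the array on the other slide.

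The transporter genes Tap1 and Tap2 stayed within 1.31-fold over the lines. Tap1, at chr17:34330854-34330913 on the plus strand, gave 50.9 ± 6.44 in L1210-control, beside 47.8 ± 5.72 in L1210-Fbxw11a, then 62.6 ± 7.05 in L1210-Fbxw11c and lastly 55.1 ± 5.90 in L1210-Fbxw11d. L1210-Fbxw11c was the highest, with a log2 ratio of 0.30 ± 0.24. Its 10 spots, from 54.6 to 73.5, overlapped those of L1210-control, from 41.5 to 66.0. Tap2, at chr17:34353116-34353175 on the plus strand, gave 4298 ± 430 in L1210-control, beside 3745 ± 374 in L1210-Fbxw11a, then 4112 ± 411 in L1210-Fbxw11c and lastly 3934 ± 393 in L1210-Fbxw11d. No pair of lines differed in Tap2 by more than the error.

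**Figure D2:**
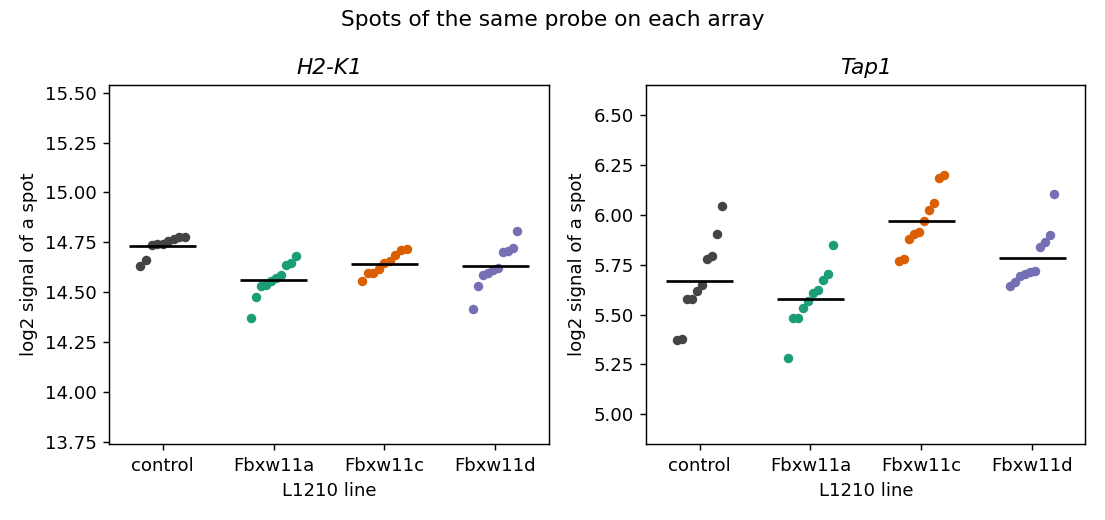
Log2 signal of each usable spot of the H2-K1 and Tap1 probes (9 or 10 spots on each array), by line, with the mean as a black line. H2-K1 spots of the 4 lines overlap, and for Tap1 L1210-Fbxw11c is the highest, with spots that reach down into the range of L1210-control. Spots are technical repeats within an array.

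Among the class II genes, H2-Ab1 was higher than in L1210-control in every variant line. Its brighter probe, at chr17:34406296-34406355 on the plus strand, gave 135 ± 14.0 in L1210-control, beside 160 ± 16.3 in L1210-Fbxw11a, then 273 ± 27.5 in L1210-Fbxw11c and lastly 214 ± 21.5 in L1210-Fbxw11d. The log2 ratios were 0.25 ± 0.21, 1.02 ± 0.21 and 0.66 ± 0.21, and all neighbours in the order of the lines differed by more than the error. The difference in L1210-Fbxw11c was 2.03-fold, only just past the threshold. The second probe, at chr17:34406305-34406363, shares 51 bases with the first and is no independent reading. It gave 106, 125, 194 and 153 in the same order, with log2 ratios of 0.23, 0.87 and 0.53, so that L1210-Fbxw11c stayed below 2-fold on it. With normexp background correction the brighter probe also fell below 2-fold, and no gene of the 10 was then past the threshold.

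H2-Eb1 had the widest range of the genes read on all arrays. Its probe at chr17:34453075-34453134, plus strand, gave 34.1 ± 5.13 in L1210-control, beside 23.3 ± 3.95 in L1210-Fbxw11a, then 66.4 ± 7.39 in L1210-Fbxw11c and lastly 39.0 ± 4.43 in L1210-Fbxw11d. It was lower than in L1210-control in L1210-Fbxw11a, with a log2 ratio of -0.55 ± 0.33, and higher in L1210-Fbxw11c, with 0.96 ± 0.27. L1210-Fbxw11d, with 0.20 ± 0.27, differed from L1210-control by less than the error. Between L1210-Fbxw11c and L1210-Fbxw11a the difference was 1.51 ± 0.29 on the log2 scale, or 2.85-fold. These signals are near the lowest reading of a probe well above background, which lay between 10.44 and 18.1 over the arrays. With quantile normalization, median centring or the authors' normalized values, H2-Eb1 in L1210-Fbxw11c was itself past 2-fold. With normexp background correction its log2 ratios shrank to -0.22 in L1210-Fbxw11a and 0.34 in L1210-Fbxw11c, and the ratio in L1210-Fbxw11d turned to -0.23.

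Cd74 ran the other way from H2-Eb1 in the same lines. Its signal was 112 ± 11.8 in L1210-control, beside 142 ± 14.5 in L1210-Fbxw11a, then 82.2 ± 8.80 in L1210-Fbxw11c and lastly 108 ± 11.05 in L1210-Fbxw11d. It was highest in L1210-Fbxw11a, with a log2 ratio of 0.34 ± 0.21, and lowest in L1210-Fbxw11c, with -0.45 ± 0.22. L1210-Fbxw11d, at -0.05 ± 0.21, did not differ from L1210-control beyond the error. No fold change of Cd74 reached the threshold between any pair of lines.

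H2-Aa and Ciita had no usable level. H2-Aa, at chr17:34421285-34421344 on the minus strand, read 4.05, 3.64, 3.32 and 2.08 in line order, each with an error of about its own size. Ciita, at chr16:10526568-10526627 on the plus strand, read 16.6, 9.69, 3.17 and 9.03 in the same order. None of these readings was well above background, so no difference between lines is given. By this probe the α chain of I-A was therefore not detectable where its partner H2-Ab1 was read on every array. The H2-Aa probe starts at base 227 of the transcript, and the H2-Ab1 probes at bases 1125 and 1134. The effect of the other H2 haplotype of DBA mice on these probes was not tested, so an absent H2-Aa transcript is not shown.

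Of the 8 members that could be compared, 0 were past 2-fold in L1210-Fbxw11a, where 4.45% of all symbols tested were. In L1210-Fbxw11c 1 of 8 was, H2-Ab1, which was higher, against 3.86% of all symbols in either direction, 1.61% higher and 2.25% lower. In L1210-Fbxw11d 0 of 8 were, against 5.78%. Its calls were unequal in direction, with 201 symbols higher and 864 lower, and this split became 323 and 619 with quantile normalization and 398 and 582 with median centring. Between variant lines, 1 of 8 was past 2-fold for L1210-Fbxw11c against L1210-Fbxw11a, H2-Eb1, beside 4.24% of all symbols. For L1210-Fbxw11d there were 0 of 8 against L1210-Fbxw11a, beside 5.97%, and 0 of 8 against L1210-Fbxw11c, beside 4.22%. These comparisons share arrays, and a count of 1 in 8 genes is too small to be read against these shares.

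**Figure D3:**
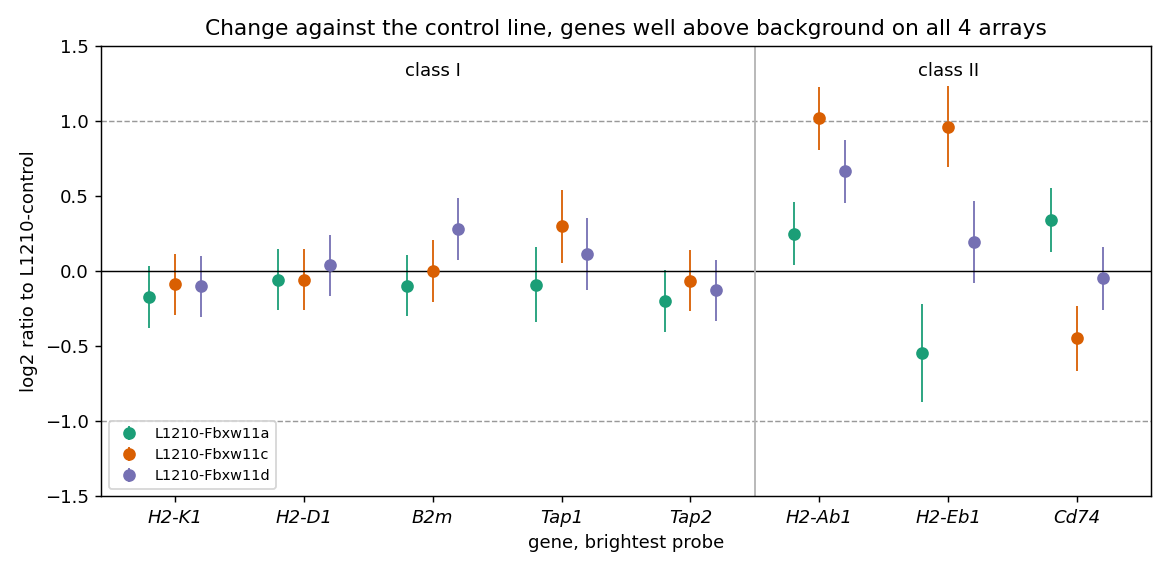
Log2 ratio of each variant line to L1210-control for the 8 genes read on all 4 arrays, with the scanner's error as vertical lines and dashed lines at 2-fold. The class I genes stay within -0.20 and 0.30 of L1210-control, while H2-Ab1 and H2-Eb1 reach 1.02 and 0.96 in L1210-Fbxw11c and H2-Eb1 falls to -0.55 in L1210-Fbxw11a.

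Set against each other, the classes had different medians in L1210-Fbxw11c. The median log2 ratio was -0.06 for the 5 class I genes and 0.96 for the 3 class II genes read, a difference of -1.02, beside a median of 0.02 over all symbols. In L1210-Fbxw11a the medians were -0.10 and 0.25, a difference of -0.35. In L1210-Fbxw11d they were 0.04 and 0.20, a difference of -0.16. Normexp background correction took the difference to -0.38 in L1210-Fbxw11c and to 0.20, with the sign turned, in L1210-Fbxw11d, where quantile normalization gave -0.44. Without a filter on dim probes, which brings in H2-Aa and Ciita, the sign turned in all 3 lines, to 0.06, 0.23 and 0.09. The class II median stands for no common direction, since H2-Eb1 and Cd74 lay on opposite sides of L1210-control in L1210-Fbxw11a and L1210-Fbxw11c.

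The size of the changes, leaving aside direction, also differed. The median absolute log2 ratio was 0.10, 0.06 and 0.11 for class I in line order, against 0.15, 0.15 and 0.21 over all symbols. For class II it was 0.34, 0.96 and 0.20. Brightness moved with this difference. Among symbols with a mean signal of 5000 or more, the median range over the 4 arrays was 0.24 on the log2 scale, and H2-K1 at 0.17 and H2-D1 at 0.10 were below it, with B2m at 0.38 above it. Tap2, at 0.20, was below the 0.29 of symbols from 1000 to 5000. For symbols from 50 to 200 the median range was 0.56. There the class I gene Tap1, at 0.39, was below it and the class II genes Cd74, at 0.79, and H2-Ab1, at 1.02, above it. Tap1 was averaged over 10 spots on each array, while Cd74 and H2-Ab1 rest on 1 spot each. Their ranges are therefore not equally precise. Below 50 the median was 0.73, and H2-Eb1 had 1.51. A range of 1 or more was found for 17.5% of symbols between 50 and 200 and for 27.3% below 50. A range of 1 was thus not rare at the brightness of H2-Ab1 and H2-Eb1. How many symbols below 50 reached the 1.51 of H2-Eb1 was not counted.

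**Figure D4:**
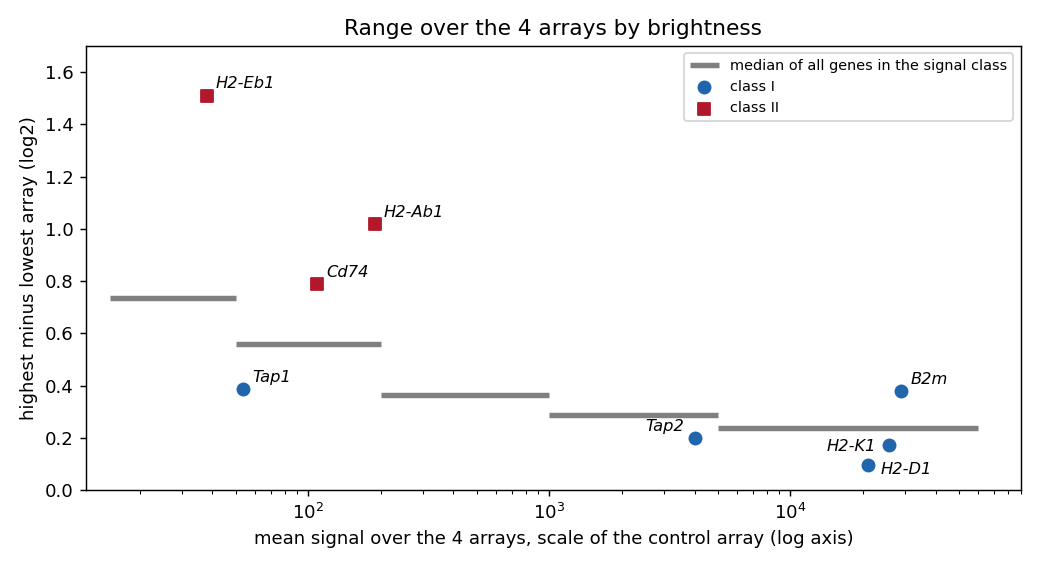
Range over the 4 arrays (highest minus lowest log2 signal) against mean signal (log axis) for the 8 genes, with grey lines for the median range of all symbols in each class of signal. The range of all symbols falls from 0.73 for the dimmest to 0.24 for the brightest. The 3 class II genes lie above their grey lines, and of class I only B2m does.

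The genes around the members were taken from lists of the same pathways. Of the other class I heavy chains, 23 of 28 were on the array by symbol, and 14 were read on all arrays. Among those, H2-Q4 had log2 ratios of -0.29, -0.21 and -0.35 in line order, and H2-T23, the Qa-1 heavy chain, had 0.09, -0.04 and -0.20. Of the whole list, 19, 18 and 20 genes could be compared in line order. In L1210-Fbxw11a 2 were past 2-fold higher and 1 lower, beside 2.43% and 2.02% of all symbols. In L1210-Fbxw11c 2 were lower, beside the 2.25% given above, and in L1210-Fbxw11d 2 were lower, beside 4.69%, and 0 higher, beside 1.09%. The list's median was 0.01, -0.09 and -0.15.

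All of these calls were in dim probes of H2-M genes, which are nonclassical class I genes. None of the called genes was among the 14 read on all arrays. H2-M10.4 read 105 in L1210-control and 3.26, 3.29 and 2.08 in the variant lines, none of these readings well above background. It was at least 7.28-fold, 7.02-fold and 10.0-fold lower in these lines. H2-M5 read 89.9, 71.2, 15.6 and 25.1 in the 4 lines, which was at least 5.76-fold lower in L1210-Fbxw11c and 3.58-fold lower in L1210-Fbxw11d, while its second probe was well above background in L1210-Fbxw11d alone, at 10.48. H2-M1 and H2-M10.2 were higher in L1210-Fbxw11a, by at least 2.10-fold and at least 3.24-fold, from readings of 14.1 and 10.29 in L1210-control that were not well above background. The probes of H2-M2 disagreed, with 1 level over the lines, at log2 ratios of 0.03, -0.09 and -0.07, and the other well above background in L1210-Fbxw11a alone. Where both arrays of a comparison had to be well above background, 0 of these calls were left in L1210-Fbxw11a and L1210-Fbxw11c. In L1210-Fbxw11d the call of H2-M5 was measured on both arrays and stayed.

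Of 11 other genes of class I peptide supply and loading, all read on every array, 1 was past 2-fold, and that in L1210-Fbxw11d, beside 4.69% of all symbols lower there. It was Nlrc5, the transactivator of class I genes, which gave 67.0, 60.7, 54.1 and 27.8 in line order, which was 2.41-fold lower than the control line in L1210-Fbxw11d. The class I members in that line had a median log2 ratio of 0.04. Tapbp, which bridges TAP and the heavy chain, had log2 ratios of -0.32, -0.04 and -0.10. The immunoproteasome genes Psmb8 and Psmb9 lie beside Tap1 and Tap2 in the MHC. Psmb8 gave 52.5, 45.9, 81.8 and 77.6, with log2 ratios of -0.19, 0.64 and 0.56. Psmb9, which shares a promoter region with Tap1, gave -0.15, 0.37 and 0.27, beside -0.09, 0.30 and 0.11 for Tap1. In Psmb8, Psmb9 and Tap1, L1210-Fbxw11a was the lowest of the lines, and L1210-Fbxw11c and L1210-Fbxw11d were above L1210-control. No difference from L1210-control was past 2-fold. For Tap1 the differences from L1210-control in L1210-Fbxw11a and L1210-Fbxw11d were within the error. Tap2 did not share the order of these genes, with log2 ratios of -0.20, -0.06 and -0.13. Psmb10, also of the immunoproteasome, had 0.07, 0.08 and 0.10. For Tap1 in L1210-Fbxw11d, normexp background correction gave a log2 ratio of -0.23, with the sign turned. Psmb8 and Psmb9 were not run under the alternatives. A second probe of Psmb9 was well above background in L1210-control alone, at 28.5.

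Of 11 other class II chains and loading genes on the array, 6 were read on all arrays, 3 on none and 0 were past 2-fold in any line, beside 4.45%, 3.86% and 5.78% of all symbols in line order, so the count of 0 among 6 to 8 tested is no result about the list. H2-DMa and H2-DMb1, the chains of the peptide editor H2-DM, were read throughout. H2-DMa gave 582, 601, 630 and 586, within 1.08-fold of L1210-control. H2-DMb1 gave 1338, 996, 1216 and 1313, with a log2 ratio of -0.43 in L1210-Fbxw11a. H2-Ob, the β chain of the H2-DM inhibitor H2-O, had -0.22, -0.88 and -0.64 by its brightest probe, so that in L1210-Fbxw11c it was lower where H2-Ab1 was higher. Another probe of H2-Ob ran the other way, at 4.19, 6.46, 8.78 and 16.3 in line order. It was well above background in L1210-Fbxw11d alone. H2-Oa, the α chain of H2-O, was read on no array.

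Of 14 genes of MHC transcription, all on the array, 12 were read on all arrays and 0 of the 12 or 13 tested were past 2-fold, which is again too few to be read against these shares. Rfx5, a subunit of the RFX complex, gave 59.9, 45.4, 52.9 and 55.8. Irf1, an interferon-induced activator of class I genes, gave 10121, 8952, 9883 and 10959, with log2 ratios of -0.18, -0.03 and 0.11. Irf8, an interferon regulatory factor of B and myeloid cells named after its values were seen, gave 832, 541, 570 and 606, with log2 ratios of -0.62, -0.55 and -0.46. Spi1 was read on no array.

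**Figure D5:**
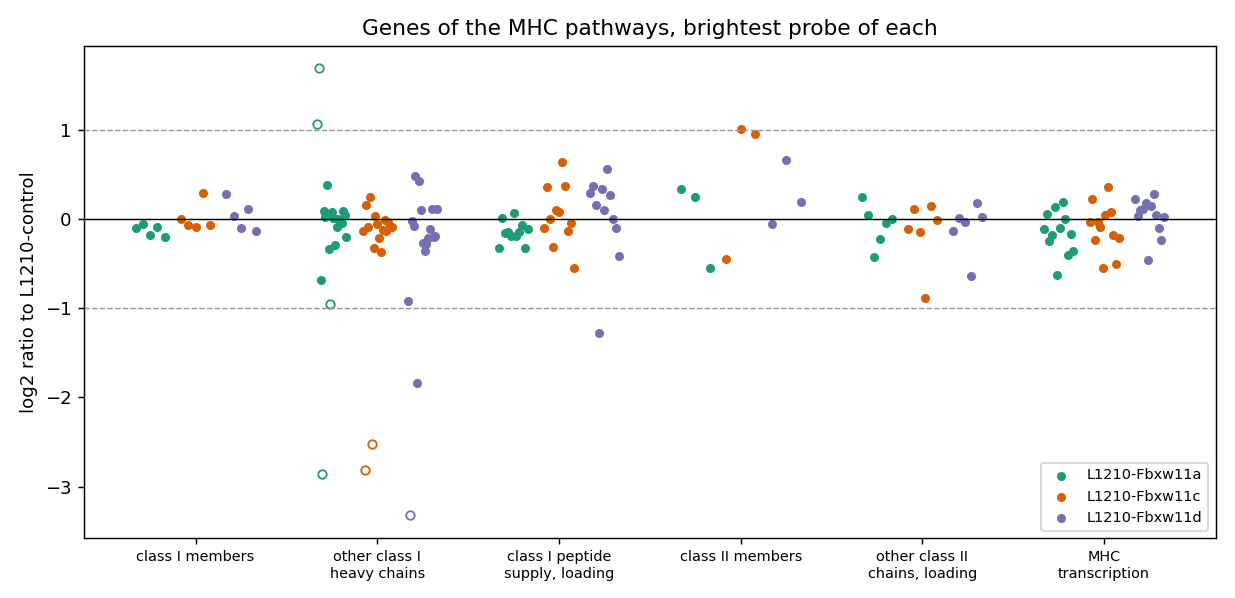
Log2 ratio to L1210-control of the members and of the other genes in the 4 pathway lists, brightest probe of each, 1 point per gene and line, with dashed lines at 2-fold. Open points are bounds, where 1 of the 2 arrays was not well above background. Outside the members, points past 2-fold lie among the other class I heavy chains (H2-M genes), besides Nlrc5 in L1210-Fbxw11d.

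The genes whose pattern was nearest to that of H2-Eb1, by Euclidean distance between mean-centred log2 signals over the 4 arrays and among 16249 symbols, were Ptger4 at 0.14, Lce1f at 0.16 and Efcab3 at 0.17. Ptger4, a prostaglandin E2 receptor, gave 40.5, 27.8, 71.4 and 47.5. The nearness rests on 4 arrays and was searched over all symbols, so it is a description of these arrays only.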

How the data were processed

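The authors deposited, for each of 4 arrays, the scanner software's output, which holds an intensity for each spot, corrected for background, and its flags, and 1 table of these intensities with log2 values normalized over the arrays by a method not given in the sources used here. The file headers name Feature Extraction 10.7.1.1, and the labels 9.1. Probe positions are mm9. From the intensities, log2 minus the array's 75th percentile was taken (621.3 for the control, 628.2 for Fbxw11a, 672.5 for Fbxw11c and 952.3 for Fbxw11d). Outlier spots (102 to 167 an array) were dropped, and a probe's spots averaged. A probe was well above background if 0.5 of its spots were. A symbol was read from its brightest probe, and compared if well above background on either array. Against an array where it was not, the fold is a bound, set by the lowest signal of probes well above background there or the probe's own, if higher.

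Genes to be named were the 10 members, 9 set pathway genes and every list gene past 2-fold, with the 3 nearest patterns. Some of these genes are not reported here. The members and lists were chosen with earlier results of these data known. With 1 array a line there is no test, and the number of arrays limits the precision. Alternatives were normexp (limma 3.58.1, R 4.3.3, offset 50), quantile normalization, median centring, the deposited log2 values, other filters, probe rules and thresholds. Python 3.11.15, numpy 2.4.6 and pandas 2.3.3 were used.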

Additional observations from a re-analysis of the deposited data

Results flagged for a closer look

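H2-Eb1 and Cd74 moved in opposite directions in different lines, each beyond the scanner's error. H2-Eb1 had a log2 ratio to L1210-control of 0.96 in L1210-Fbxw11c and of -0.55 in L1210-Fbxw11a. Cd74 had 0.34 in L1210-Fbxw11a and -0.45 in L1210-Fbxw11c. All 4 values kept their sign under every alternative run, with H2-Eb1 between 0.34 and 1.04 in L1210-Fbxw11c and between -0.60 and -0.22 in L1210-Fbxw11a. The other filters and the mean of a gene's probes could not change these values. Each of these genes has 1 probe, well above background on all arrays. With 1 array a line, the difference between the lines was not tested.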

How the results depend on the processing

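In L1210-Fbxw11c the count of members past 2-fold moved from 1 to 2 with the deposited values, quantile normalization and median centring (H2-Ab1 and H2-Eb1), to 2 without a filter on dim probes (H2-Ab1 and Ciita), to 0 with normexp or the mean of a gene's probes, to 2 at a fold change of 1.5 and to 0 at 3. In L1210-Fbxw11d it was 1 at a fold change of 1.5. In L1210-Fbxw11a it was 0 throughout. The class I minus class II median became 0.0554, 0.228 and 0.0876 in the Fbxw11a, Fbxw11c and Fbxw11d lines without a filter on dim probes, which brings in H2-Aa and Ciita. It was -0.377 in L1210-Fbxw11c and 0.204 in L1210-Fbxw11d with normexp, and -0.439 in L1210-Fbxw11d with quantile normalization and with the deposited values. The cause was not tested. Pathway genes outside the members past 2-fold, a count added after seeing the data, were 3, 2 and 3 in the 3 lines. They became 6, 4 and 5 at a fold change of 1.5, and 6, 4 and 6 without a filter. In L1210-Fbxw11a and L1210-Fbxw11c they were 5 and 1 with the mean of probes, 1 and 1 with normexp, and 0 and 0 where both arrays had to be well above background. In L1210-Fbxw11d they were 2 with each of these settings. Over all symbols, the calls of 797, 685 and 1065 became 249, 209 and 456 with normexp, 2004, 1836 and 2778 without a filter, and 444, 360 and 728 with both arrays well above background. Median centring moved the median of all symbols to 0.01, 0.09 and 0.26, and the class I median in L1210-Fbxw11d to 0.25 with it. Of 195 alternative values of the 24 log2 ratios of members, 183 moved by less than the scanner's error. For 15 of the 24 the sign held under every alternative, among them H2-Ab1 in all 3 lines. Many of these values could not move. Dropping the filter on dim probes, or asking for both arrays well above background, left every member ratio unchanged. Averaging probes did so for genes with 1 probe. The deposited values lay close to quantile normalization, with 0.752 for H2-Ab1 in L1210-Fbxw11d under both. The counts therefore overstate how stable the ratios were. The slide as a block was not run, since each line has 1 array. No paired analysis was possible because each line has 1 array. Signal over background limits what can be said of Tap1, H2-Eb1, H2-Aa and Ciita.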

Other observations

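Other genes tied to antigen presentation were read from lists and are given as values. Among 7 MHC-like genes outside the MHC, Fcgrt, the neonatal Fc receptor, gave 28.4, 56.7, 53.9 and 59.0 in the control line and the Fbxw11a, Fbxw11c and Fbxw11d lines, which are 1.998-fold, 1.90-fold and 2.08-fold differences. It was past 2-fold in L1210-Fbxw11d alone, as 1 of 5 genes tested beside 1.09% of all symbols higher, and just under it in L1210-Fbxw11a. Of 7 costimulation genes, Cd86, Cd40 and Cd83 were not well above background on any array, and Cd80 gave 289, 256, 267 and 246. Pdcd1lg2, the ligand PD-L2, read 16.4, 53.4, 23.8 and 28.4 on its brighter probe and was not well above background in the control line, so it was higher by at least 2.95-fold, 1.32-fold and 1.57-fold. It was 1 of 4 costimulation genes tested in L1210-Fbxw11a, beside 2.43% of all symbols higher. Its second probe read 3.69, 48.7, 52.3 and 13.0, again below that limit in the control line alone.

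Of 16 interferon response genes, 14 were read on all arrays and their median log2 ratio was -0.03, -0.04 and 0.01 in the same order. Ifit3, 1 of the 14, was 2.15-fold higher in L1210-Fbxw11a, beside 2.43% of all symbols. Oas1a, an oligoadenylate synthetase, and Iigp1, an interferon-γ-induced GTPase, were 4.81-fold and 2.82-fold lower in L1210-Fbxw11d, the line on the other slide, which makes 2 of 14 beside 4.69% of all symbols. A second probe of Oas1a was well above background in that line alone. Cxcl10, an interferon-induced chemokine, gave 7652, 4288, 5041 and 4091, lower in all 3 variant lines at log2 ratios of -0.84, -0.60 and -0.90, none of them past 2-fold.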
